A study of Rattus norvegicus with 6 samples.

Results

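The potassium channel genes of the rat are described here on 6 two-colour Agilent arrays of striatum, salivary glands and peripheral leukocytes. Members were the genes whose platform symbol begins with Kcn followed by a letter, with Kcnn4 and Kcnj13 left out, which gave 81 of the 14871 gene symbols on the array and 105 probes. They comprise 35 alpha subunits of voltage-gated channels, 12 of their auxiliary subunits, 14 inward rectifiers, 7 calcium-activated channel genes, 2 sodium-activated channel genes and 11 two-pore channel genes. One further probe, annotated to Kcnd2 together with a second symbol, was not counted, and 64 of the members rest on a single probe.

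The animals were male Wistar rats housed singly from 21 days of age and sampled at 60 days. They were tickled, touched lightly or given no stimulus on weekdays for 4 weeks, each bout alternating 15 s without and 15 s with stimulation, and no genetic alteration or drug is named in the labels. On each array tickled RNA (Cy5) was hybridised with that of no-stimulus or light-touch rats (Cy3), tissue by tissue, and every value is read here as a log2 ratio of tickled over comparator, where 1 is 2-fold higher in the tickled sample and -1 is 2-fold lower. That direction rests on the labelled dyes, and the log base is not stated: were the values natural logs, each would be 1.44 times as large on the log2 scale. The labels give 4 animals for a condition and a single replicate for an array, without saying whether RNA was pooled.

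A potassium channel lets potassium leave the cell down its gradient, which draws the membrane potential towards rest. Voltage-gated channels open on depolarisation and end the action potential, inward rectifiers hold the resting potential and in part are opened by G proteins, calcium-activated channels follow each rise of cytosolic calcium, and two-pore channels carry the background leak. In the striatum inward rectifiers keep the medium spiny neurons silent between inputs, in salivary glands potassium channels keep up the driving force for chloride and fluid secretion, and in lymphocytes they sustain calcium entry after antigen contact.

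With 1 array per comparison, neither replicated nor dye-swapped, the values carry no p-value and no spread over samples. Both arrays of a tissue may carry the same tickled extract, which the labels do not settle, so their values are set side by side only. As an error only the spread between a gene's probes can be had. Its median standard deviation over genes with several valued probes was, no-stimulus array first, 0.12 and 0.09 for striatum. For salivary glands it was 0.10 and 0.09, and for leukocytes 0.15 and 0.20. Among members it was larger on every array, at 0.22 and 0.14 for striatum over 10 and 9 genes. Members had 0.15 and 0.25 in salivary glands over 4 genes, and 0.28 and 0.29 in leukocytes over 1. The medians of all features lay between -0.001 and 0.014. All 12 medium spiny neuron markers on the array had values in striatum. In salivary glands all 7 granular duct and all 7 acinar markers did. Leukocyte samples gave values for 8 and 9 of 11 leukocyte markers, where 42.5% and 41.6% of all genes had one. Glands gave values for more of these markers, 10 and 11, and for 6 and 8 of the medium spiny ones. Granular duct markers were valued for 1 of 7 in striatum and 1 in leukocytes, and acinar markers for 2 and 0. Whether such counts identify a tissue was not tested. Per the labels the extraction protocol of every sample names hypothalamus, which is not among the labelled tissues.

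Potassium channel genes had a value mostly in striatum. There 62 of 81 members had a ratio on at least 1 array (76.5%), beside 74.3% of all genes, against 34 in salivary glands (42%, beside 73.3% of all genes) and 13 in leukocytes (16%, beside 45%). Why values were left blank is not stated, so a blank is not read as absence of the transcript. Of the 35 alpha subunits of voltage-gated channels, 29 had values in striatum, 12 in the glands and 5 in leukocytes, and inward rectifiers for 12 of 14, 7 and 1. Striatum alone gave a value for 33 members (40.7%, beside 7.38% of all genes), and all 3 tissues did for 10 (12.3%, beside 42.1%). Salivary glands alone gave one for 5 members, Kcne1, Kcne4, Kcnj15, Kcnq1 and Kcnv2 (6.17%, beside 5.36% of all genes), and leukocytes alone for 1, Kcnmb1, a subunit of the large-conductance calcium-activated channel (1.23%, beside 0.888%). No value on any array was given for 12 members (14.8%, beside 18% of all genes): Kcna2, Kcna7, Kcne2, Kcnh5, Kcnh8, Kcnj2, Kcnk10, Kcnk15, Kcnk18, Kcnmb2, Kcnrg and Kcnt2.

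**Figure D1:**
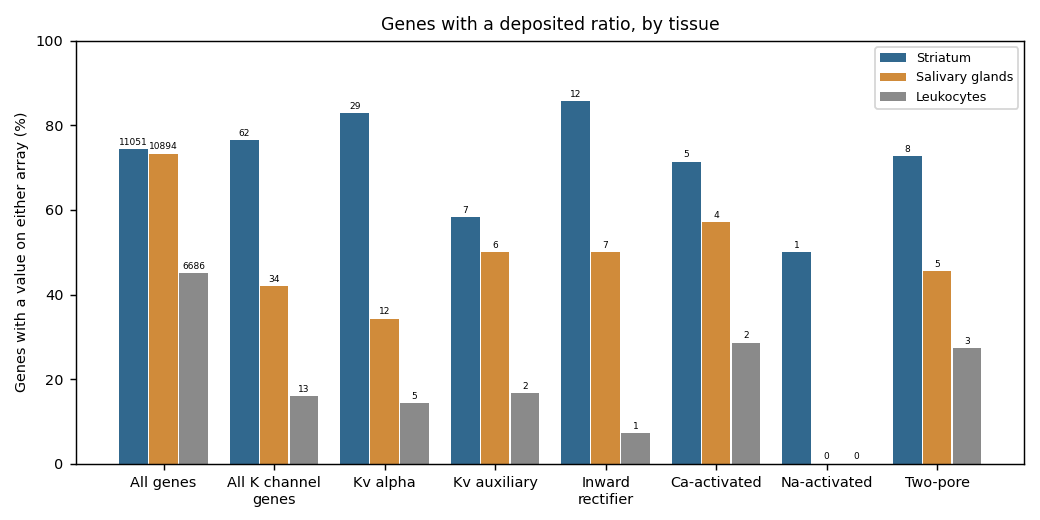
Bars give the share of genes with a deposited ratio on either array of a tissue (%), for all genes, all potassium channel genes and each class, with the number of genes above each bar (Kv, voltage-gated). From striatum through glands to leukocytes, all genes stand at 74.3%, 73.3% and 45%, and potassium channel genes at 76.5%, 42% and 16%.

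In striatum Kcnj6 and Kcnc2 were the potassium channel genes farthest from 0. Kcnj6, a G protein-gated inward rectifier through which dopamine, opioid and GABA receptors quiet neurons, had log2 ratios of -0.86 (against no stimulus) and -1.08 (against light touch), which is 1.81-fold and 2.12-fold lower in the tickled sample. Among all genes it ranked 17th lowest of 10922 on the first array and 8th lowest of 10835 on the second. Kcnc2, a fast delayed rectifier of interneurons that fire at high rates, had -0.53 and -0.68, the latter 1.60-fold lower. These are the members outside 1.5-fold: 1 of 61 lower over no stimulus (0.787% of all genes) and 2 of 62 lower over light touch (0.545% of all genes), with 0 higher on either array (0.485% and 0.812% of all genes). Nearest inside the 1.5-fold line were Kcnc2 over no stimulus and Kcnj1, a kidney channel with a value on the light-touch array alone, at -0.50. At a lower fold, 0.32 on the log2 scale, 8 members were lower over no stimulus (5.35% of all genes) and 0 higher (3.65%), and over light touch 6 were lower (2.7%) and 2 higher (2.92%). At 2-fold Kcnj6 over light touch was the 1 member left (0.0831% of all genes lower, 0.0831% higher), with 0 over no stimulus (0.0916% lower, 0.0458% higher).

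Over all members the medians were -0.08, with 39 of 61 below 0 on the no-stimulus array, and -0.06, with 42 of 62 below 0 on the light-touch array, beside medians of -0.02 and -0.003 and 6001 of 10922 and 5516 of 10835 below 0 for all genes. Only 1 of the 2 probes of Kcnj6 had a value, and Kcnc2 has 1 probe. All 11 markers of cortical glutamatergic neurons on the array had values in the same striatum, with a median of -0.36 (range -1.26 to 0.19; 4 at or beyond 1.5-fold lower) over no stimulus and -0.40 (-1.13 to 0.19; 5 lower) over light touch. Medium spiny neuron markers had medians of -0.12 (range -0.42 to 0.09) and -0.003 (-0.17 to 0.12), astrocyte markers 0.26 (0.15 to 0.36) and 0.05 (-0.05 to 0.30), and oligodendrocyte markers 0.22 (-0.03 to 0.33) and 0.06 (-0.04 to 0.23). Against no stimulus, 2 of 6 choroid plexus markers had a value, with a median of 0.44 (0.28 to 0.595). Against light touch 3 did, with a median of 0.61 (0.23 to 1.62). The part of these cell types in the potassium channel values was not tested, and in bulk tissue fewer cells of a type and less RNA per cell cannot be told apart.

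The sequences before the transcription start of both genes are shown, since these were the lowest members of the striatum. They come from RefSeq (GRCr8), read 5′ to 3′ on the gene's strand, 250 bases each, at chr11:47778349-47778598 (minus strand) for Kcnj6 and chr7:49587364-49587613 (plus strand) for Kcnc2. Capitals mark matches, on either strand, to the motifs searched. The TATA box was searched as TATAAA and the GC box with the letters GGGCGG. The CCAAT box was searched under its own letters, the cAMP response element by TGACGTCA, and the E box through its form CACGTG.
Kcnj6: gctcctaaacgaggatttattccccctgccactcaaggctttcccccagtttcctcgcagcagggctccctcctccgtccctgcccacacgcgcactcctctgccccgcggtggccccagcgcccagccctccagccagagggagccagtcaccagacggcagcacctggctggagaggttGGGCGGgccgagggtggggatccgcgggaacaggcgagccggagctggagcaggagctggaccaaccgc
Kcnc2: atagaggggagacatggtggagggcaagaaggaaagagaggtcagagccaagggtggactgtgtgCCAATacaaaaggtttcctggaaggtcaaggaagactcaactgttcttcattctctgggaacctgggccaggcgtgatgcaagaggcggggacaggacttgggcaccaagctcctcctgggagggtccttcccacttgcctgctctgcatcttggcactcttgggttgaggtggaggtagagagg
The Kcnj6 window is 69.2% G and C and holds 1 GC box, and that of Kcnc2 is 56.0% and holds 1 CCAAT box. GC boxes were in 31 of 62 windows of the 56 members with an entry (50%), beside 30.5% of 33469 windows of all genes; CCAAT boxes were in 25.8% beside 34%, TATA boxes in 1.61% beside 12.9%, E boxes in 3.23% beside 5.59%, and cAMP response elements in 0% beside 1.59%. The median share of G and C was 59.6% in members and 51.2% in all windows, and a match is a description of these letters, not a site.

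**Figure D2:**
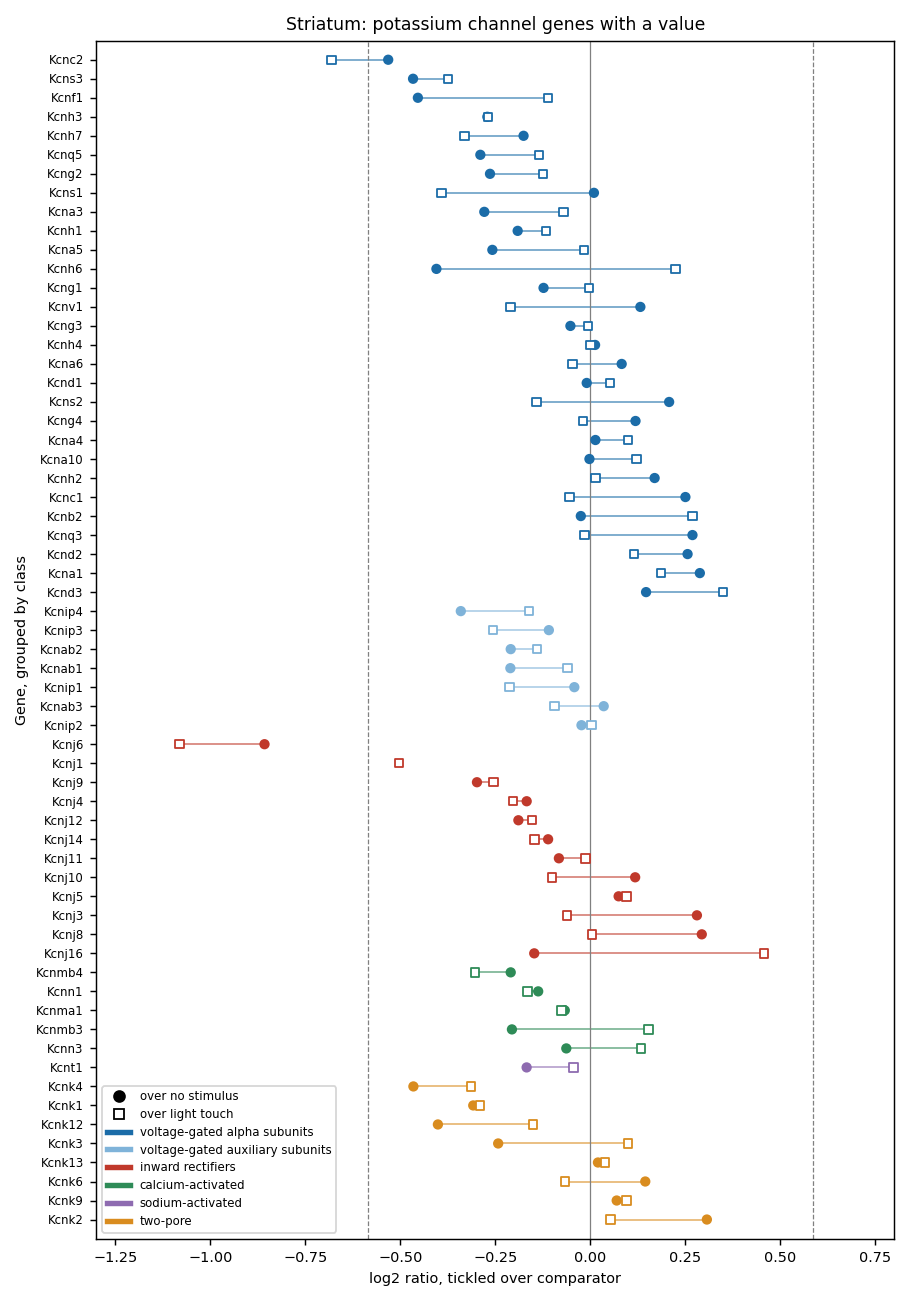
Each line is a gene with a value in striatum, with its log2 ratio of tickled over no stimulus (filled circle) and over light touch (open square), coloured by class; dashed lines mark 1.5-fold. Kcnj6 lies apart at -0.86 and -1.08, Kcnc2 comes next at -0.53 and -0.68, and the other members lie within 1.5-fold.

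Of the G protein-gated family, Kcnj6 was the one far from 0 in striatum. Kcnj9, a further neuronal member of this family, had -0.30 and -0.25, and Kcnj5, known best from the heart's atria, had 0.07 and 0.09. Kcnj3, the subunit that assembles with the others at the membrane, had 0.28 and -0.06, but its 3 valued probes ran from -0.49 to 0.39 on the no-stimulus array and from -0.28 to 0.09 on the light-touch array, so its value does not settle a direction. The list of genes that gate or sort this family, made of G protein subunits, RGS proteins and the sorting nexin Snx27, had values for 11 of 11, with medians of -0.07 and -0.06 and none beyond 1.5-fold. Gng3, a G protein gamma subunit of neurons, had -0.32 and -0.17, Gnb2, a beta subunit, had -0.21 and -0.18, and Rgs7, which speeds the closing of the channel, had 0.18 and 0.11.

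Other inward rectifiers of the striatum were nearer to 0. In the strongly rectifying group some members set the resting potential of medium spiny neurons. Its values were -0.17 and -0.20 (Kcnj4), -0.19 and -0.15 (Kcnj12) and -0.11 and -0.15 (Kcnj14), while Kcnj2 had no value. Both pore subunits of ATP-sensitive channels, which couple metabolism to excitability, were 0.29 and 0.005 (Kcnj8) and -0.08 and -0.01 (Kcnj11); their sulphonylurea receptor partners had 0.22 and 0.04 (Abcc9) and -0.08 and -0.13 (Abcc8). Kcnj10, which clears potassium into astrocytes, had 0.12 and -0.10. Kcnj16, which joins Kcnj10 in glial channels, differed more between the arrays, at -0.15 against no stimulus and 0.46 against light touch. The class median was -0.11 and -0.12.

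Voltage-gated alpha subunits had medians of -0.01 and -0.02 over 29 genes in striatum, 13 and 10 of them above 0. Kcnc1, which forms the same fast delayed rectifier as Kcnc2, had 0.25 and -0.06, against -0.53 and -0.68 for Kcnc2. The A-type channel genes Kcnd2 (0.26 and 0.11) and Kcnd3 (0.15 and 0.35) lay above 0, as did Kcna1, an axonal channel whose loss causes episodic ataxia, at 0.29 and 0.19, with both probes above 0. Kcna4, another A-type gene, had 0.01 and 0.10, and Kcnd1 had -0.01 and 0.05. For Kcna3 the median of -0.28 and -0.07 joins probes that disagreed: 1 gave 0.07 and 0.11, and the other -0.63 and -0.25. Kcnb2, a delayed rectifier, had -0.03 and 0.27.

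Among the electrically silent subunits, which form no channel alone and modify others, Kcns3 had -0.47 and -0.38. It was the lowest of them over no stimulus, and Kcns1 was the lowest over light touch. Kcnf1 had -0.45 and -0.11, Kcns1 0.01 and -0.39, Kcns2 0.21 and -0.14, and Kcnv1 0.13 and -0.21. Kcng2 had -0.26 and -0.12, with probes from -0.46 to -0.02 and from -0.57 to 0.01. Of the ether-a-go-go family, Kcnh4 was at 0.01 and 0.0004, the neuronal Kcnh3 at -0.27 and -0.27, Kcnh7 at -0.18 and -0.33, Kcnh1 at -0.19 and -0.12, and Kcnh2, which repolarises the heart, at 0.17 and 0.01. Kcnh6 had -0.41 and then, against light touch, 0.22. The M-current genes, whose channels are closed by muscarinic receptors, had 0.27 and -0.02 (Kcnq3) and -0.29 and -0.14 (Kcnq5).

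Auxiliary subunits of voltage-gated channels had medians of -0.11 and -0.14 over 7 genes, 6 of them below 0 on each array. Kcnip4 had -0.34 and -0.16, Kcnip3 -0.11 and -0.26, Kcnip1 -0.04 and -0.21, and Kcnip2 -0.02 and 0.002; these are calcium-binding partners of A-type channels. The beta subunit genes Kcnab1 and Kcnab2, whose products bind the axonal channels, both had -0.21 over no stimulus, with -0.06 and -0.14 over light touch. Partner and scaffold genes, chosen as a list, had 13 of 16 valued with medians of -0.12 and -0.09, 11 of them below 0 on each array and none beyond 1.5-fold. Farthest from 0 were Stx1a, a synaptic fusion protein that binds channels, at -0.51 and -0.55, Sestd1 at -0.19 and -0.52, and Cntn2, an axonal adhesion protein, at 0.34 and 0.15.

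Calcium-activated genes had medians of -0.14 and -0.08 over 5 genes in striatum, none of them beyond 1.5-fold. Kcnma1, the pore of the large-conductance channel, had -0.07 and -0.08, with 4 probes between -0.13 and 0.04 and between -0.20 and -0.01. Farthest from 0 was its neuronal partner Kcnmb4, at -0.21 and -0.30, the latter 340th lowest of 10835 genes. Kcnmb3 had -0.21 and 0.15. The small-conductance genes, which shape the pause after a spike, had -0.14 and -0.17 (Kcnn1) and -0.06 and 0.13 (Kcnn3). Kcnt1, opened by sodium, had -0.17 and -0.04.

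Two-pore genes had medians of -0.11 and -0.01 over 8 genes. Kcnk4, a mechanically gated leak channel, had -0.47 and -0.31, Kcnk1 had -0.31 and -0.29, and Kcnk12 -0.40 and -0.15. Kcnk2, a relative of Kcnk4 that also responds to stretch, had 0.31 and 0.05. The first value joins probes at 0.49 and 0.12, and over light touch only the latter probe had a value. The acid-sensitive Kcnk3 and Kcnk9 had -0.24 and 0.10, and 0.07 and 0.10; Kcnk13, known from microglia, had 0.02 and 0.04, and Kcnk6 0.14 and -0.07.

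Channels for other ions in striatum stayed within 1.5-fold too. Sodium channel genes had medians of -0.05 and 0.10 over 9 genes, with Scn10a at 0.22 and 0.49 and Scn9a at -0.32 and 0.002. Calcium channel genes had medians of -0.13 and -0.05 over 15, of which 11 and 10 were below 0, with Cacna2d2 at -0.41 and -0.003 and Cacna1b at -0.34 and -0.21. Of the HCN pacemaker channels, Hcn2 had -0.05 and -0.06 and Hcn3 had a value below 0 on each array, -0.14 over no stimulus. Sodium pump beta subunits lay between -0.08 and 0.12, and the cation-chloride cotransporters between -0.11 and 0.19.

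**Figure D3:**
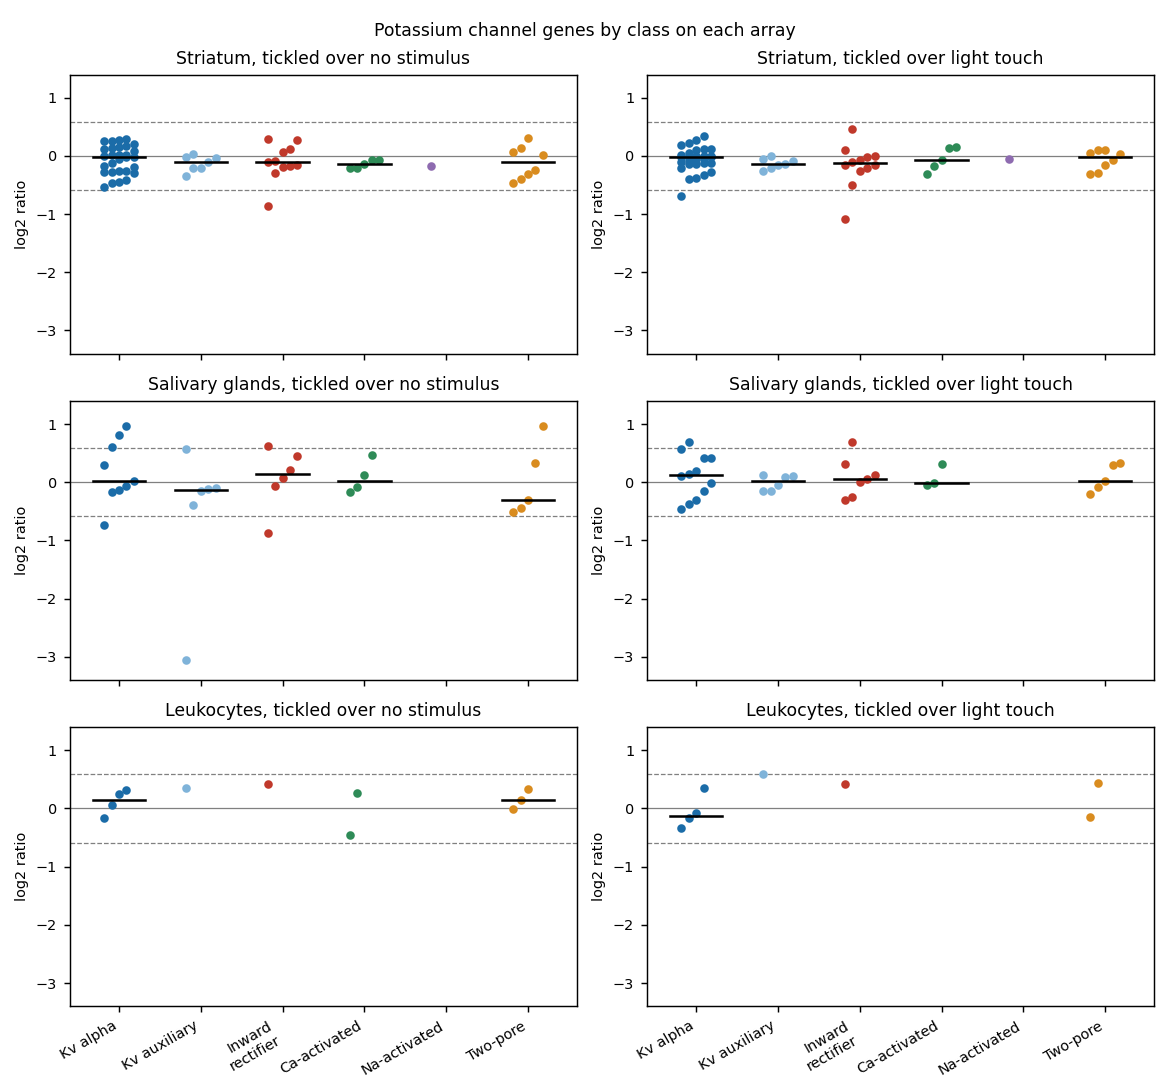
Points are potassium channel genes by class (Kv, voltage-gated), with the log2 ratio of tickled over comparator on the vertical axis, 1 panel per array; black bars are class medians (3 or more genes) and dashed lines mark 1.5-fold. In striatum the class medians lie between -0.14 and -0.01, and the salivary no-stimulus array spreads from -3.06 to 0.97.

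In salivary glands members were spread more widely over no stimulus than over light touch. Kcne1, a single-span subunit that slows the channel of Kcnq1, had -3.06 and 0.12 on its single probe. The first is 8.33-fold lower in tickled glands and the 9th lowest of 10522 genes; were the values natural logs it would be -4.41 on the log2 scale. Kcnh4, an ether-a-go-go family gene known from brain, had 0.97 and 0.69, which is 1.95-fold and 1.61-fold higher, and ranked 105th and 53rd highest. Kcnj14 had 0.62 and 0.69, 1.53-fold and 1.61-fold higher. Of 30 members valued over no stimulus, 5 were 1.5-fold or more higher (2.94% of all genes) and 3 lower (2.74% of all genes); over light touch 2 of 33 were higher (0.877% of all genes) and 0 lower (0.747% of all genes). Except for Kcnh4 and Kcnj14, no member passed 1.5-fold over light touch. At 0.32 on the log2 scale, 9 were higher and 6 lower over no stimulus (8.33% and 8.27% of all genes), and 6 higher and 2 lower over light touch (3.71% and 3.82%). At 2-fold Kcne1 alone was left, lower over no stimulus (1.02% of all genes lower, 0.931% higher), and 0 over light touch (0.0653% lower, 0.187% higher).

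These 8 genes over no stimulus rest on 1 probe each, in a tissue where 34 of 81 members had a value. Members had interquartile ranges of 0.59 and 0.44 on the no-stimulus and light-touch arrays, beside 0.25 and 0.18 for all genes, and 0.32 and 0.20 for members in striatum, beside 0.23 and 0.16. Signal intensities were not used here, so how far low signal widens these ranges was not tested. Granular duct markers were higher over no stimulus, 7 of 7 beyond 1.5-fold with a median of 3.03 (range 0.82 to 3.73), and had a median of -0.19 (-0.30 to 0.50) over light touch. Adipocyte markers had medians of -0.74 (-1.68 to 0.10) and 0.84 (0.11 to 1.61) over 6 genes, acinar markers 0.01 (-1.47 to 1.87) and 0.03 (-0.09 to 2.31) over 7, and smooth muscle markers -0.39 (-1.16 to 0.01) and -0.02 (-0.11 to 0.03) over 3. Their part in the potassium channel values was not tested.

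The windows before the start of Kcne1 and Kcnh4 are shown, as the farthest members each way in salivary glands, with capitals as above. They lie at chr11:45077034-45077283 and chr10:86188477-86188726 of GRCr8, both on the minus strand.
Kcne1: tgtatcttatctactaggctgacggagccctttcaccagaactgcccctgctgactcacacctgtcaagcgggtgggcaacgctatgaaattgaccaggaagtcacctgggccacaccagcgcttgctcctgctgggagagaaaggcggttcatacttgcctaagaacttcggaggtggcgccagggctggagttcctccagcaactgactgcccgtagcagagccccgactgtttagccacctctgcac
Kcnh4: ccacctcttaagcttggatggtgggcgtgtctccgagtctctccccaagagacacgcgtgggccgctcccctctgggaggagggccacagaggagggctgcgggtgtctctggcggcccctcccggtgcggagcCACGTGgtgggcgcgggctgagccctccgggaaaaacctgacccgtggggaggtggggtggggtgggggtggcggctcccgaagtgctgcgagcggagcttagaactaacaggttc
Neither holds a TATA, GC or CCAAT box by these letters. The Kcnh4 window, 68.8% G and C, holds 1 E box, and that of Kcne1, 57.6%, holds none of the motifs searched.

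**Figure D4:**
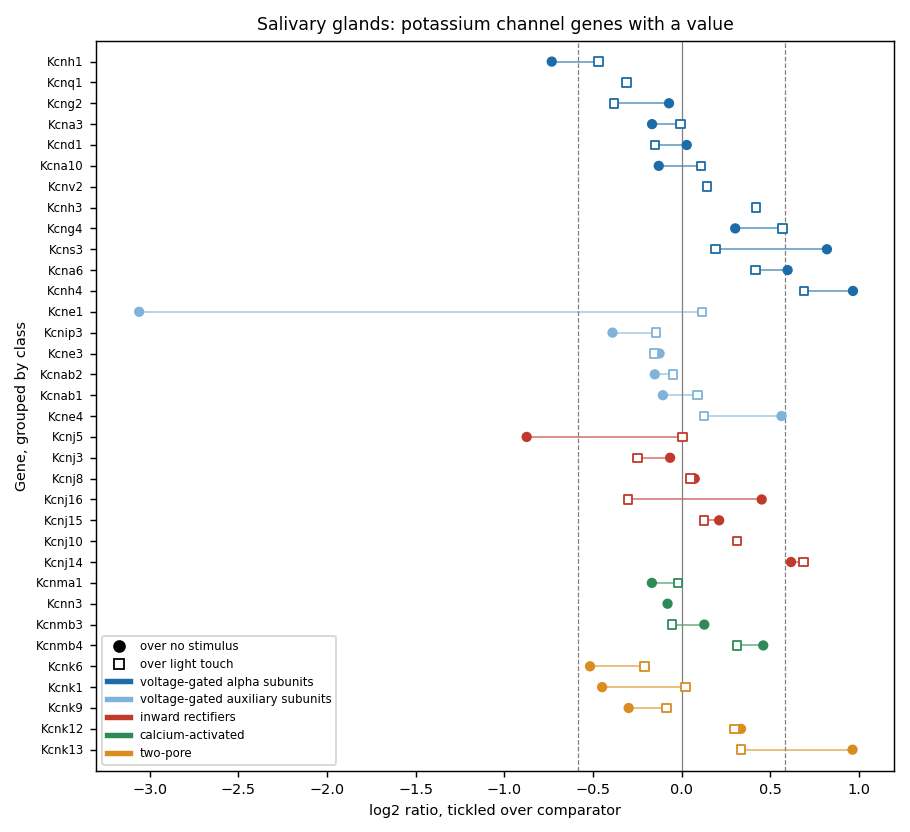
Each line is a gene with a value in salivary glands, with its log2 ratio of tickled over no stimulus (filled circle) and over light touch (open square), coloured by class; dashed lines mark 1.5-fold. Kcne1 lies at -3.06 and 0.12, Kcnh4 at 0.97 and 0.69, and Kcnj14 at 0.62 and 0.69.

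The voltage-gated alpha subunits of the glands held 3 of the 5 members beyond 1.5-fold higher over no stimulus. After Kcnh4 came Kcns3, a silent subunit, at 0.82 and 0.19, and Kcna6, a delayed rectifier, at 0.60 and 0.42. Kcnh1, of the same family as Kcnh4, went the other way, at -0.73 and -0.47. Kcng4 had 0.30 and 0.57, the member nearest to 1.5-fold from inside over light touch. Kcng2 had -0.07 and -0.38, with probes from -0.24 to 0.10 and from -0.66 to 0.11. Kcnq1, the partner of Kcne1 in secretory epithelia, had a value over light touch alone, -0.31, as did Kcnh3 at 0.42 and Kcnv2 at 0.14. Kcna3, Kcnd1 and Kcna10 lay between -0.17 and 0.11 on both arrays.

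Of the other auxiliary subunits, Kcne4, which restrains Kcnq1, had 0.56 and 0.13, just inside 1.5-fold over no stimulus, and Kcne3, which holds Kcnq1 open in epithelia, had -0.12 and -0.15. Kcnip3 had -0.39 and -0.14. The class median was -0.14 and 0.02 over 6 genes. The beta subunits lay nearer to 0: Kcnab1 had -0.11 and 0.09, and Kcnab2 had -0.15 and -0.05.

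Inward rectifiers of the glands had medians of 0.14 and 0.05 over 6 and 7 genes. Kcnj5 had -0.87, 1.83-fold lower, on the no-stimulus array and 0.01 on the other. Kcnj16 had 0.45 and -0.30, Kcnj15, which pairs with Kcnj16, had 0.21 and 0.13, and Kcnj8 had 0.07 and 0.05. Kcnj10, the other partner of Kcnj16, had 0.31 over light touch and no value over no stimulus. Probes of Kcnj3 disagreed, at -0.39 and 0.26 over no stimulus.

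Kcnma1, the calcium-activated channel on which salivary secretion draws, had -0.17 over no stimulus, with 3 probes between -0.17 and -0.07, and -0.02 over light touch, with probes between -0.10 and 0.03. Its partner Lrrc26, which lets the channel open at rest in secretory cells, had 0.18 and -0.06. Kcnmb4 had 0.46 and 0.31, Kcnmb3 0.13 and -0.06, and Kcnn3 -0.08 on the no-stimulus array alone.

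Two-pore genes split in the glands. Kcnk13 had 0.96 and 0.34, 1.95-fold higher over no stimulus, and Kcnk12, its closest relative, 0.34 and 0.30. Lower over no stimulus were Kcnk6 at -0.52 and -0.21, Kcnk1 at -0.45 and 0.02 and Kcnk9 at -0.30 and -0.09. The class median over 5 genes was -0.30 on the no-stimulus array and 0.02 on the other. Both probes of Kcnk6 were below 0, at -0.47 and -0.56 over no stimulus and at -0.01 and -0.41 over light touch.

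Among the other transport genes of the glands, those beyond 1.5-fold over no stimulus were the cotransporter gene Slc12a2, which loads acinar cells with chloride, at 0.90 and -0.03, the sulphonylurea receptor Abcc9 at 0.80 and 0.31, the calcium channel beta subunit Cacnb3 at 0.67 and 0.07, the sodium pump subunit Atp1b2 at 0.59 and 0.22, and the sodium channel Scn11a at -1.02 and 0.24. Beyond it over light touch were Stx1a (0.97, and -0.04 over no stimulus), Cacna1i (0.67, and 0.46) and Cacna1b (-0.59, with no value over no stimulus). Hcn3 had -0.53 and 0.0007. The G protein list lay between -0.15 and 0.22 over 7 genes on both arrays.

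In leukocytes few members had a value, and 1 reached 1.5-fold. Kcne3 had 0.59 over light touch, 1.51-fold higher, and no value over no stimulus. It no longer reached 1.5-fold once the arrays were centred on their median. Kcne3 was 1 of 8 members valued on that array, where 8.09% of all genes passed upwards and 5.06% downwards; over no stimulus 0 of 11 members passed either way (3.21% and 2.9% of all genes). At 0.32 on the log2 scale, 3 were higher and 1 lower over no stimulus (13.4% and 14.4% of all genes) and 4 higher and 1 lower over light touch (20.6% and 17.7%), and at 2-fold 0 on either array (0.38% and 0.142%, then 1.44% and 0.275%). Kcna3, the channel that T cells use to hold their potential during activation, had 0.06 and -0.07. Both values of Kcna3 are smaller than the median disagreement between probes on these arrays.

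Other members with values on both leukocyte arrays were Kcnj3 at 0.43 and 0.43, Kcnk9 at 0.34 and 0.45, Kcna6 at 0.32 and 0.34, Kcnk6 at 0.15 and -0.15, and Kcng2 at 0.25 and -0.34. For Kcng2 the probes ran from -0.21 to 0.31 over no stimulus and from -0.54 to -0.13 over light touch. Over no stimulus alone, Kcnab2, a beta subunit, had 0.35, Kcnmb1 0.27, Kcnmb3 -0.45, Kcna10 -0.17 and Kcnk3 -0.01, and over light touch alone Kcnh3 had -0.17. The members' medians were 0.25 over 11 genes and 0.13 over 8, beside 0.01 and 0.01 for all genes. Of the leukocyte types, neutrophil markers had medians of 0.82 (range 0.73 to 0.82) and -0.06 (-0.32 to 0.78) over 3 genes. T cell markers had -0.16 (-0.42 to -0.09) and -0.01 (-0.15 to 0.11) over 5. Platelet markers had 0.28 (0.11 to 0.48) and -0.64 (-0.77 to -0.22) over 3. The part of these cell types was not tested. Of the other ion channel lists, the sodium channel Scn10a was beyond 1.5-fold, at 0.85 and 0.95.

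Light touch can be set against no stimulus as the difference of both arrays of a tissue, which holds only if they carry the same tickled extract, and the labels do not say so. On that reading the values of light touch over no stimulus in salivary glands were -3.17 for Kcne1, -0.88 for Kcnj5, 0.76 for Kcnj16, and 0.63 for both Kcnk13 and Kcns3. For Kcnh4 and Kcnj14, the members beyond 1.5-fold on each salivary array, they were 0.28 and -0.07. In striatum the farthest were Kcnh6 at -0.63 and Kcnj16 at -0.60, while Kcnj6 had 0.22 and Kcnc2 0.15. In leukocytes Kcng2 was farthest, at 0.58, but its medians join different probes, 3 on the no-stimulus array and 2 on the other. Of the Kcng2 probes valued on each array, the first had 0.25, then -0.13, and the second -0.21, then -0.54.

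Kcnh4 and Kcnj6 differ in where they had a value. Kcnj6 had one in striatum alone, so its ratio cannot be set beside another tissue. Kcnh4 had 0.97 and 0.69 in salivary glands against 0.01 and 0.0004 in striatum. Of the 25 members valued on all 4 arrays of striatum and salivary glands, Kcns3 had -0.47 and -0.38 in striatum against 0.82 and 0.19 in the glands, and Kcnj5 had 0.07 and 0.09 against -0.87 and 0.01. No difference between tissues was tested, since each comparison has 1 array.

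**Figure D5:**
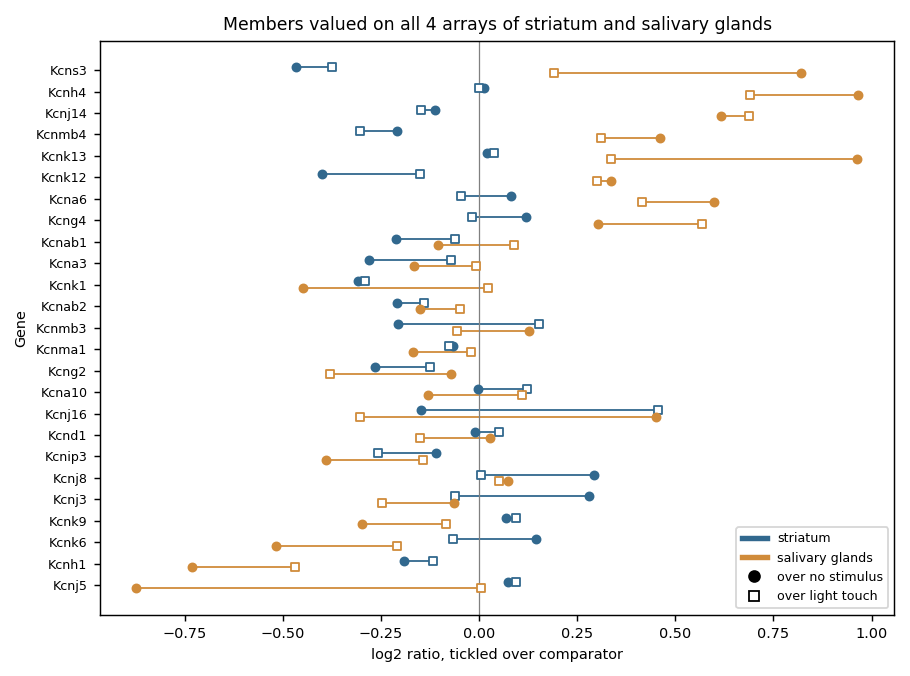
For the 25 members valued on all 4 arrays, log2 ratios of tickled over no stimulus (circle) and over light touch (square) are joined by a line for striatum (blue) and salivary glands (orange), sorted by the difference between tissues. Kcns3 and Kcnh4 stand at the top with higher values in the glands (0.82 and 0.19, 0.97 and 0.69), and Kcnj5 at the bottom with -0.87 and 0.01.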

How the data were processed

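The authors deposited a table of log ratios, read here as log2, for 44290 features. Between 12541 and 27590 features had a value on an array, and 12768 were blank throughout. Agilent Feature Extraction 9.1 is named in the submitters' processing notes. Normalization, log base and the reason for blanks are unstated there. Base 10 was not used, since the largest absolute value, 7.75, would then be a ratio of 5.65e+07; natural logs stay possible and would make each value 1.44 times as large. The direction, tickled (Cy5) over comparator (Cy3), was taken from the labelled dyes, since the deposited table gives none. Per the labels, 500 ng of total RNA was used.

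Features were joined to genes through the platform annotation: 23535 carried 1 symbol, 48 several and 20707 none, and only the first entered. All 81 members matched the RefSeq gene table of assembly GRCr8 by Entrez identifier, with no symbol changed. Probes of 1 gene were summarised by their median. Genes at or beyond 1.5-fold (0.585 on the log2 scale) were counted beside all genes of the array. Promoter windows came from RefSeq (GRCr8) and were cut to the bases before the start.

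Named were Kcnj6 and Kcnh4; members beyond 1.5-fold on any array; the 3 highest and lowest of each class; genes known for a role in the tissue; members nearest to 1.5-fold; those whose probes differ most; and up to 3 per transport list. The report names further members, so that nearly all with a value are given. Members, lists and rules were chosen with earlier results of these data known. Calculations used Python 3.11.15, pandas 2.3.3 and numpy 2.4.6, and the counting was tested on simulated data. The number of arrays limits the precision. Alternatives were centring and scaling of arrays, other summaries of probes, other folds and natural logs.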

Additional observations from a re-analysis of the deposited data

Results flagged for a closer look

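Members whose values had 1 sign on both arrays of a tissue and the opposite sign on both arrays of another are given here with the gap between their nearest values. None of these differences was tested, and both arrays of a tissue may carry the same tickled extract. In striatum against salivary glands there were 5 such genes among 25 members valued on all 4 arrays (20%), beside 14.6% of 9426 genes: Kcnj14, with a gap of 0.73, Kcns3 with 0.57, Kcnmb4 with 0.52, Kcnk12 with 0.45 and Kcnk9 with 0.15. The first 4 were lower in tickled striatum and higher in tickled glands, and Kcnk9 was the reverse. In salivary glands against leukocytes there were 2 among 6 members (33.3%), beside 23.6% of 5673 genes: Kcnj3 with 0.49 and Kcnk9 with 0.42, both lower in tickled glands and higher in tickled leukocytes. In striatum against leukocytes there were 0 among 6 members, beside 22.4% of 5548 genes. The salivary value of Kcnj3 joins 2 probes, which are of opposite sign on the no-stimulus array. Its leukocyte value rests on 1 of these probes, which in glands read 0.26 on the no-stimulus array and -0.10 on the other. On that probe the glands and leukocytes therefore differ in sign on the light-touch arrays only. The other salivary probe, at -0.39 and then -0.40, gave no value in leukocytes, so the gap of Kcnj3 compares different probes.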

How the results depend on the processing

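With 1 array per comparison no array could be left out. No paired analysis was possible because each comparison has 1 array. No sign turned among values beyond 1.5-fold, but scaling, natural logs and centring by shifts this small could not turn one. Taking the mean over probes changed no count of members beyond 1.5-fold. Each such member had 1 valued probe on that array, so its mean equals its median. In striatum over no stimulus, the count of 1 lower member became 8 at a lower fold (0.32 on the log2 scale), 0 at 2-fold, 5 under natural logs and 0 with 2 or more agreeing probes. Over light touch, the 2 lower became 6 at the lower fold, 1 (Kcnj6) at 2-fold and 0 with agreeing probes. They became 3 under natural logs and 3 with arrays centred and scaled to 1 spread. The 0 higher became 2 at the lower fold and 1 under natural logs. In salivary glands over no stimulus, the 5 higher became 9 at the lower fold, 0 at 2-fold, 8 under natural logs, 3 with arrays centred and scaled to 1 spread and 0 with agreeing probes; the 3 lower became 6, 1 (Kcne1), 5 and, with agreeing probes, 0. Over light touch the 2 higher became 6, 0, 5 and, with agreeing probes, 0, and the 0 lower became 2 at the lower fold and 1 under natural logs. In leukocytes over no stimulus, 3 were higher and 1 lower at the lower fold, and 1 each way under natural logs. Over light touch the 1 higher, Kcne3, was 0 when arrays were centred on their median or scaled too, 0 at 2-fold and 0 with agreeing probes, and 4 at the lower fold and 3 under natural logs; 1 was lower at the lower fold.

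The log2 ratios of Kcnj6 in striatum were -0.72 and -1.35 with arrays scaled to 1 spread and -1.24 and -1.56 under natural logs. Kcne1 in salivary glands over no stimulus had -2.67 and -4.41 under the same alternatives. Class medians moved by more than the median disagreement between probes over all genes in these cases. With agreeing probes, which left 1 gene each, two-pore genes had 0.31 in striatum over no stimulus and -0.52 and -0.21 in salivary glands, calcium-activated genes -0.17 in glands over no stimulus, inward rectifiers -0.25 in glands over light touch, and voltage-gated alpha subunits -0.34 in leukocytes over light touch. Under natural logs two-pore genes had -0.43 in glands over no stimulus. With the smallest probe of each gene, alpha subunits had -0.053 in leukocytes over no stimulus. Fewer genes with agreeing probes follow from 64 of 81 members having 1 probe, from further probes without a value and from probes of opposite sign. Every member beyond 1.5-fold had 1 valued probe on that array, so agreeing probes could count none of them. For Kcnj6 this was 1 of 2 probes.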
